A study of Mus musculus with 12 samples.

Results

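Hearts taken 24 h after gavage with DMA were compared with hearts taken 24 h after the vehicle DMSO. These are the samples whose titles give DMA or DMSO and 24 hours, and they make up 6 of the 12 arrays of the series, 3 per group. All mice were of the inbred strain Balb/c and were randomly assigned to 30 mg of DMA per kg body weight or to DMSO by gavage; the labels do not expand the abbreviation DMA, and give no sex or age. The other 6 arrays hold the same 2 treatments at 48 h. The labels call the 3 arrays of a group biological replicates, but the submitters describe pooling at the isolation of RNA. How many animals stand behind an array is therefore unknown, and p-values here measure only the spread between arrays, which may be technical. What was measured is the log2 intensity of polyA RNA, copied into biotinylated cRNA and stained with Cy5, on 1-colour arrays.

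The working heart draws most of its energy from fatty acids, which mitochondria oxidise, and switches towards glucose under load. An orally given compound can show in heart RNA through enzymes of foreign compound metabolism, through the Nrf2 and heat shock programmes that respond to chemical and protein stress, and through interferon-inducible genes, an antiviral and immune programme that many cell types of the heart can run. Interferon-inducible genes include the Oas and Mx antiviral effectors, the Gbp and Irg families of large GTPases that attack vacuoles of intracellular pathogens, and the antigen processing genes.

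No probe passed the threshold for a DMA effect at 24 h. Of 35547 probes tested with limma, 0 (0%) had a Benjamini-Hochberg adjusted p under 0.05, and the smallest adjusted p was 0.963. At an unadjusted p under 0.05 there were 503 probes (1.42%), 332 higher and 171 lower after DMA. Without DMA replicate 3, the array that stood apart from the rest, the count was again 0, with a smallest adjusted p of 0.356 and 882 probes (2.56%) at an unadjusted p under 0.05, 406 higher and 476 lower. The median standard error of a difference was 0.59 log2 units with all 6 arrays and 0.39 without that array.

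Same-numbered arrays were read as pairs, because the deviations of same-numbered DMA and DMSO arrays from their group means correlated at 0.189, 0.114 and 0.121. Those of differently numbered arrays correlated at -0.102 to -0.012. Deviations from a group mean cancel out within the group. Positive values for same-numbered arrays therefore force negative ones elsewhere on balance, and the negative values are no separate support for the pairing. Among the 14667 genes with a value on all 6 arrays, 1817 (12.4%) were higher after DMA in all 3 pairs and 1388 (9.46%) were lower in all 3. Genes whose DMA and DMSO values also did not overlap numbered 484 higher (3.3%) and 329 lower (2.24%). These shares are the background against which the gene groups below are read.

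The 3 pairs differed greatly in how far DMA and DMSO lay apart. Over the 7308 bright genes, those with a mean log2 value at or above the median of 6.67 and a value on all 6 arrays, the SD of the DMA minus DMSO difference was 0.26 in pair 1, 0.71 in pair 2 and 2.26 in pair 3. The arrays of pair 1 lay closer to each other than any 2 arrays of 1 group did: the SDs were 0.53 for DMA replicate 1 minus 2, and 0.54 to 0.92 between DMSO arrays. In pair 1 only 0.452% of bright genes differed by more than 1 log2 unit, against 61.5% in pair 3.

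**Figure D1:**
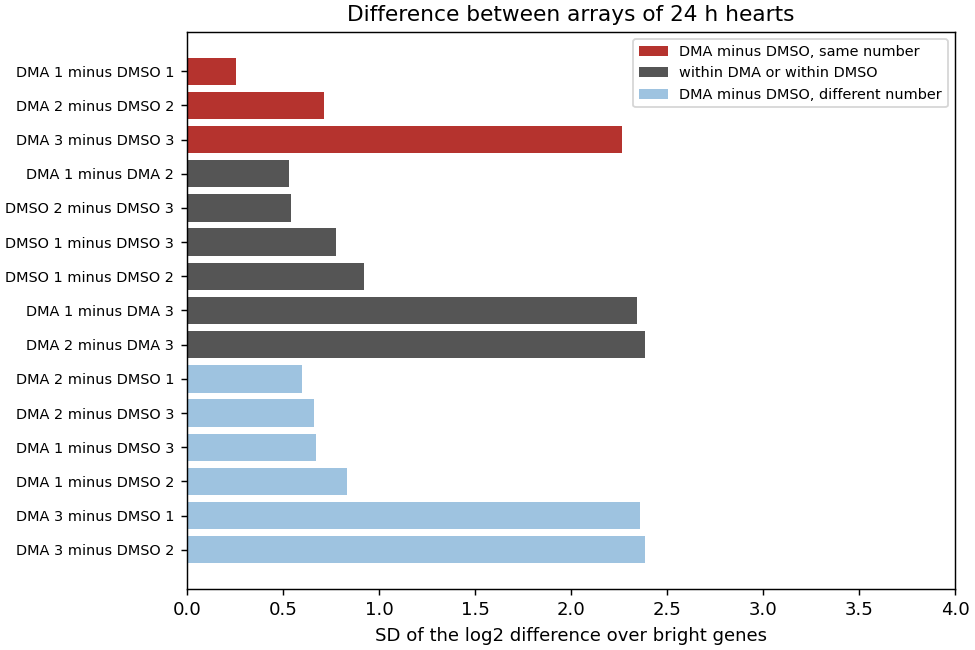
SD of the log2 difference over 7308 bright genes for each pair of the 6 arrays of 24 h; each bar is 1 pair of arrays, red for DMA minus DMSO of the same number, grey within a group and blue for different numbers. The shortest bar is pair 1 (0.26), and each of the 5 bars that hold DMA replicate 3 reaches 2.26 or more.

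Genes that differed most in 1 pair had the same sign in another pair at shares mostly below the background, and above it in some comparisons. Across bright genes the pair differences correlated at -0.203 between pairs 1 and 2, -0.062 between pairs 1 and 3 and 0.042 between pairs 2 and 3; these are correlations over genes, which are not independent replicates, and no 2 pairs share an array. Of 26 bright genes at least 1 log2 unit higher in pair 1, 9 were higher in pair 2 (34.6%), where 44.2% of all bright genes were higher. In pair 3 the share was also 34.6%, against 54.4%. Of 7 genes at least 1 log2 unit lower in pair 1, 42.9% were lower in pair 2 and 28.6% in pair 3, against 55.8% and 45.6%. Of 800 genes at least 1 log2 unit higher in pair 2, 24.5% were higher in pair 1 and 50.1% in pair 3, against 50% and 54.4% of all bright genes. Of 68 genes at least 1 log2 unit lower in pair 2, 51.5% were lower in pair 3, against 45.6% of all bright genes. In pair 1 45.6% of them were lower, against 50%. Of 2045 higher by that much in pair 3, 47.5% were higher in pair 2 and 48.75% in pair 1, against 44.2% and 50%. Of 2447 lower by that much in pair 3, 53.8% were lower in pair 2 and 50.35% in pair 1, against 55.8% and 50%.

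The largest differences of pair 1 came with vehicle values that stood apart from the other DMSO arrays, low for the genes higher after DMA and high for Twist1. These genes were chosen after their values were seen. Xirp2, which encodes an actin-binding protein of cardiac intercalated discs, read 3.14 in DMSO replicate 1 and 12.54 and 12.61 in the other DMSO arrays, and 9.80, 12.26 and 6.22 in the DMA arrays. Tm7sf3, a membrane protein gene, read 3.81 in DMSO replicate 1 and between 9.12 and 11.19 on the other 5 arrays. Neither gene kept its sign in pair 2, where the differences were -0.28 and -0.10. On the lower side Twist1, a transcription factor of mesenchymal cells, read 9.76 in DMSO replicate 1 and between 6.56 and 7.21 on the other 5 arrays, a pair 1 difference of -2.55.

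DMA replicate 3 carried the spread of pair 3. Its Pearson correlation with the gene-wise median of its 5 companions was 0.742, and the companions' own values were 0.927 to 0.959. Of bright genes, 26.1% were at least 2 log2 units lower on this array than on the mean of the other 5, and 4.09% were at least 2 units higher; on each other array at most 1.75% were that low. The share grew with the level of the gene, from 2.60% of genes below 5 log2 units to 42.9% of genes at 13 or more.

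**Figure D2:**
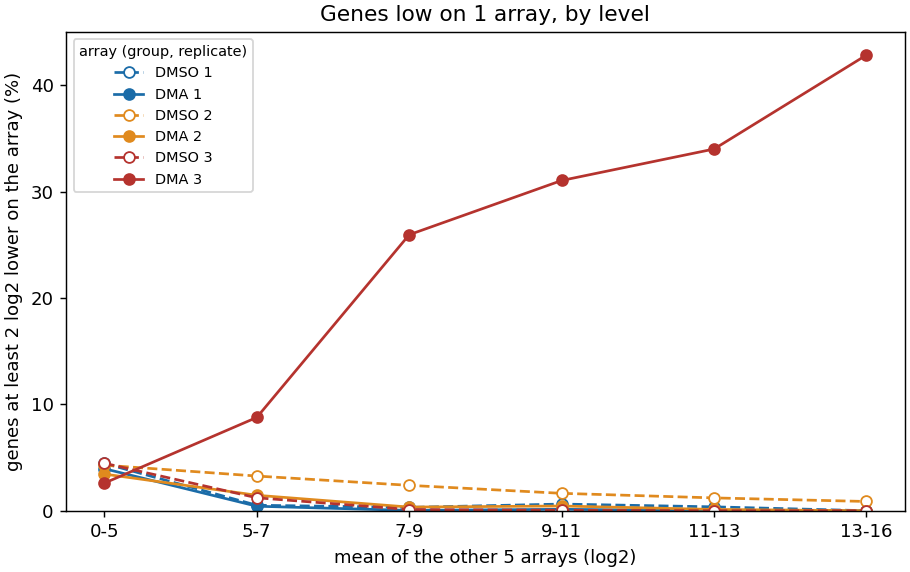
Share of genes (%) that were at least 2 log2 units lower on an array than on the mean of the other 5, by that mean; solid lines and filled points are DMA arrays, dashed lines and open points DMSO arrays. DMA replicate 3 climbs from 2.60% to 42.9%, and the other 5 arrays stay at or below 4.46% at every level.

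Among 6806 named genes whose other 5 arrays spanned less than 1 log2 unit, 1466 were at least 2 units lower and 245 at least 2 units higher on DMA replicate 3. Farthest below was Tigar, a regulator of glycolysis, at the array's lowest value of 1.37 against 11.53 to 12.01 on the others. Phb2, a prohibitin of the mitochondrial inner membrane, read 3.32 against 12.48 to 13.38. Dut (dUTPase) and Hspa12a (an HSP70 relative), both also at 1.37, came next, then Tmod3, which caps actin filaments, at 2.99 against 11.74 to 12.07, and Rarres2 (chemerin). Over all 6 arrays Phb2, Hspa12a and Tmod3 differed between DMA and DMSO by -3.18, -3.28 and -3.02. Their second probes differed by 0.32, 0.54 and -0.115. On the high side stood, among others, odorant receptor and opsin genes: Olfr922 read 9.30 against 4.82 to 5.80, Olfr1134 10.25 against 6.16 to 6.61, and the cone opsin gene Opn1sw 9.34 against 5.51 to 6.05. Zfp52, Kcnn4 and Nell1 showed the same picture. Nell1 differed between DMA and DMSO by 1.14 and its second probe by 1.06. What set this array apart is not given in the sources used here and was not tested, so it is not known whether its values stand for the named genes in the way those of the other arrays do. Every mean over the 3 DMA arrays given from here on includes it.

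Markers of the labelled tissue were uneven. Tnnc1, cardiac troponin C, read 12.88, 12.56 and 12.20 after DMSO and 13.49, 13.04 and 6.07 after DMA, the last value being DMA replicate 3. Hrc, a calcium-binding protein of the sarcoplasmic reticulum, lay between 14.05 and 14.20 on 5 arrays and at 9.73 on DMA replicate 3. Myh6, the main myosin of the adult mouse heart, had a probe that read only 3.84 to 7.16, and Ryr2, the calcium release channel, read 5.41 to 7.54, around the array medians of 6.03 to 6.04. Of 20 cardiomyocyte markers 17 had a named probe and 8 were tested. Of 58 listed genes with too few values to test, 28 had a value on DMA replicate 3 alone, among them Tnni3, Pln, Fabp3 and Myl2, so DMA and DMSO could not be compared for them. In bulk hearts, fewer cells of a type and less RNA per cell cannot be told apart.

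Nearly all measured interferon-inducible genes were higher after DMA in pair 1 and fewer were in pairs 2 and 3, with none of them past the threshold. Of the 32 genes on the interferon response list, 26 were tested and 0 were called; 0 had an unadjusted p under 0.05 with limma. Of the 21 with a value on all 6 arrays, 20 (95.2%) were higher after DMA in pair 1, 14 (66.7%) in pair 2 and 11 (52.4%) in pair 3; over all genes the shares were 48.6%, 49.98% and 57.0%. The median differences of the list were 0.41, 0.46 and 0.26 log2 units, against -0.01, 0.00 and 0.29 over all genes. In all 3 pairs, 7 of 21 were higher (33.3%, against 12.4% of all genes) and 0 were lower (against 9.46%).

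**Figure D3:**
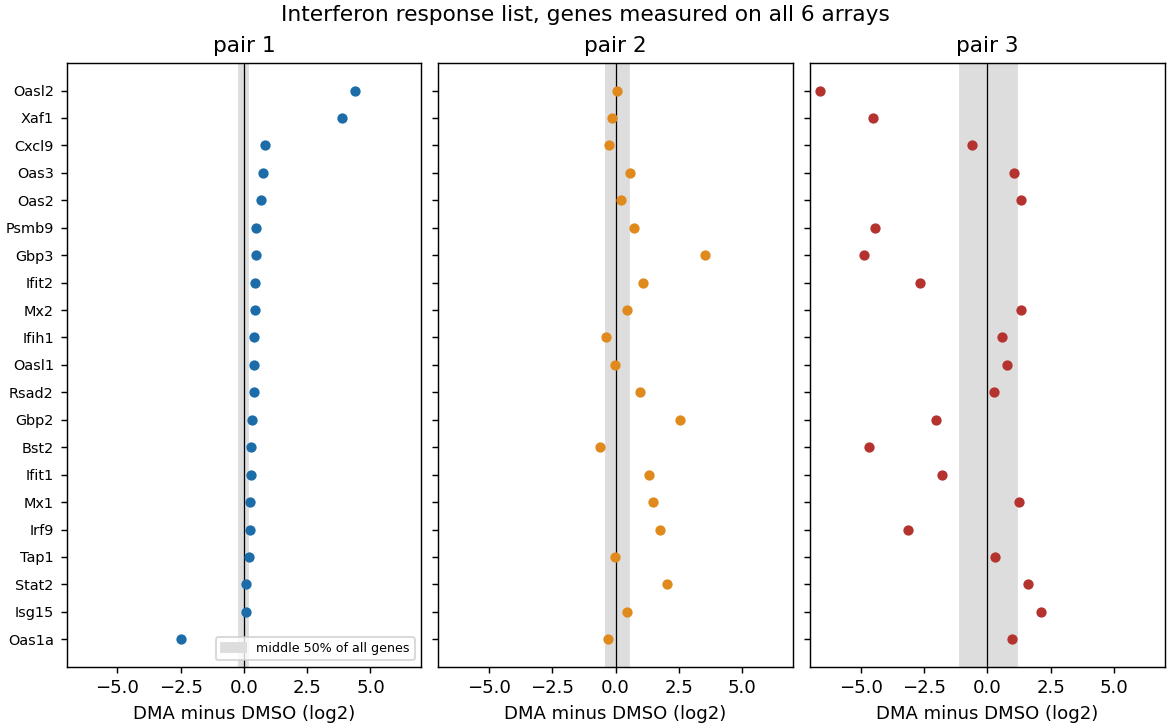
DMA minus DMSO (log2) in each pair for the 21 genes of the interferon response list with a value on all 6 arrays, ordered by pair 1; the grey band is the middle 50% of all genes. In pair 1, 20 of the 21 points lie right of 0; in pair 3 the points lie from -6.60 to 2.12.

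The 7 genes that were higher in every pair were Stat2, Isg15, Mx1, Mx2, Oas2, Oas3 and Rsad2. Stat2, the transcription factor that carries type I interferon signals, read 6.18, 5.19 and 6.27 after DMSO and 6.27, 7.21 and 7.86 after DMA in replicates 1, 2 and 3; all DMA values reached or passed the highest DMSO value, and the difference was 1.23 (SE 0.57, limma adjusted p = 0.963). Oas3, a sensor of double-stranded RNA, read 7.04, 7.96 and 8.67 after DMSO and 7.78, 8.52 and 9.73 after DMA. Its groups overlapped: both values of pair 1 were lower than all others, and DMA replicate 2 lay below DMSO replicate 3. The pair differences were 0.74, 0.56 and 1.06, and the group difference of 0.79 had an SE of 0.66.

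Other antiviral effectors among the 7 differed between pairs as well. Mx1, a dynamin-like GTPase, read 5.85, 6.87 and 7.84 after DMSO and 6.08, 8.34 and 9.08 after DMA. Oas2 read 9.61, 11.23 and 11.19 after DMSO and 10.29, 11.45 and 12.51 after DMA. Isg15, a ubiquitin-like modifier, read 6.89, 6.17 and 7.17 after DMSO and 6.97, 6.61 and 9.29 after DMA. For Mx1 and Oas2 both arrays of pair 1 lay below all others, and for Isg15 DMA replicate 3 lay above all others.

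Other members were high after DMA in pairs 1 and 2 and low on DMA replicate 3. Psmb9, an immunoproteasome subunit, read 9.35, 8.91 and 9.13 after DMSO and 9.85, 9.64 and 4.68 after DMA. Irf9, a transcription factor of interferon signalling, read 7.97, 6.87 and 7.53 after DMSO and 8.19, 8.63 and 4.39 after DMA. On DMA replicate 3, 38.1% of the list was at least 2 log2 units below the other arrays, against 16.7% of all genes and 26.1% of bright genes; 15 of the 21 were bright. Oasl2 and Xaf1 had the largest pair 1 differences of the list, 4.38 and 3.86, but differed by only 0.05 and -0.15 in pair 2. Oasl2 read 4.69, 12.06 and 12.04 after DMSO and 9.07, 12.11 and 5.44 after DMA. Xaf1 read 7.82, 14.40 and 13.98 after DMSO and 11.68, 14.25 and 9.46 after DMA. For both genes each array of pair 1 lay below the other DMSO arrays.

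The median difference of the interferon list depended on single arrays. It was 0.25 with all 6 arrays and 0.37 without DMA replicate 3, -0.09 without DMSO replicate 1 and -0.06 without DMA replicate 2. The macrophage and monocyte markers, which could move with such genes, had medians of -0.05, 0.71 and 0.46 in the 3 pairs. In every pair 1 of 11 was higher (9.09%, against 12.4% of all genes) and 0 were lower (against 9.46%). Mean levels were 7.85 to 8.50 on the DMSO arrays and 7.98 to 8.63 on the DMA arrays. Lymphocyte markers had medians of 0.06, -0.13 and 0.50. Of 15, 4 were higher in every pair (26.7%) and 1 was lower (6.67%), and mean levels were 5.61 to 6.18 and 6.04 to 6.26. Their part in the interferon values was not tested.

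The Irg and Gbp GTPases were looked at after their values had been seen, because several led the named genes. Of 18 such genes, 14 had a named probe and 11 a value on all 6 arrays. Of these, 10 were higher in both pair 1 and pair 2 (90.9%, against 21.2% of all genes), and 9 were lower in pair 3. Irgm1 read 10.06, 9.95 and 10.63 after DMSO and 10.74, 11.16 and 8.38 after DMA. Gbp3 read 7.89, 4.799 and 7.86 after DMSO and 8.35, 8.32 and 3.01 after DMA. Gbp9 was lower in all 3 pairs, by -0.57, -0.24 and -0.51. As the family was chosen on these values, the counts describe it and support nothing.

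Igtp had the smallest unadjusted p among the bright genes that were higher in all 3 pairs without overlap. This GTPase of the Irg family read 8.15, 6.22 and 8.01 after DMSO and 9.19, 8.97 and 10.16 after DMA, so each DMA array lay above each DMSO array. The means were 7.46 ± 1.08 and 9.44 ± 0.63 (SD, n = 3 each), the difference 1.98 (SE 0.65), and the limma adjusted p 0.963. It was 1.62 without DMA replicate 3 and at least 1.36 without any single array.

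**Figure D4:**
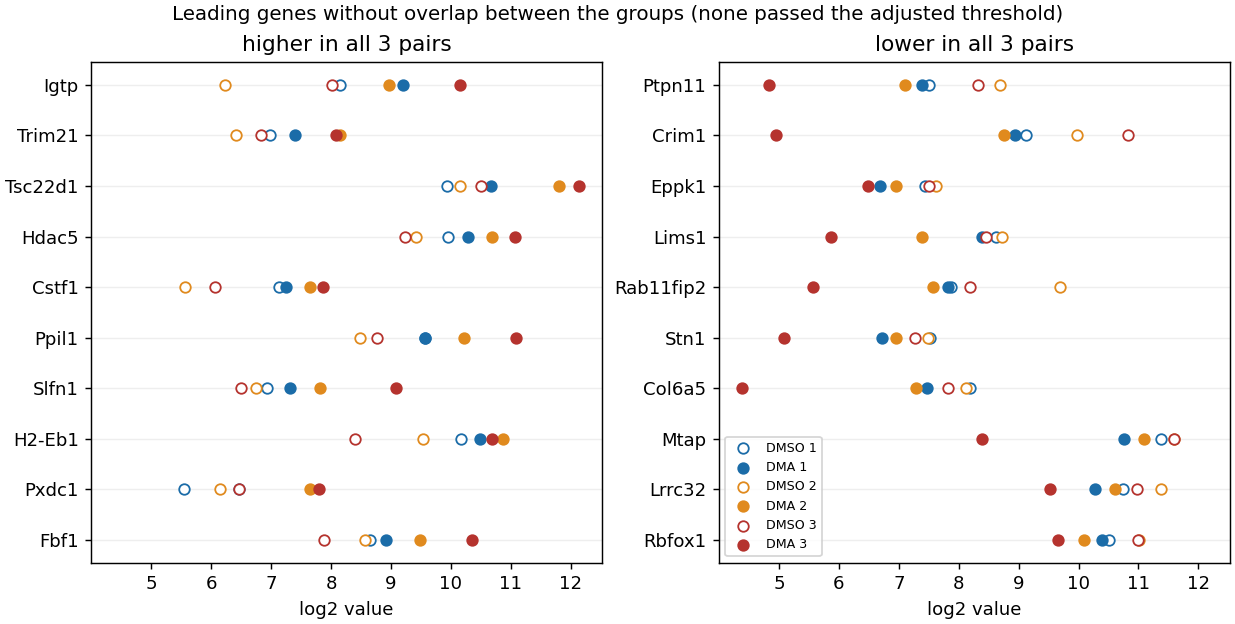
Log2 values of the 10 leading genes per direction on each array; open circles are DMSO, filled circles DMA, and the colour gives the replicate number. In the lower group the DMA replicate 3 point is the leftmost for each gene, while in the higher group it lies among or beyond the other DMA points.

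A total of 181 named bright genes were eligible on the higher side. Trim21, an antibody receptor and ubiquitin ligase of the cytosol, read 6.99, 6.41 and 6.83 after DMSO and 7.40, 8.15 and 8.08 after DMA, a difference of 1.14 (SE 0.43). H2-Eb1, a chain of MHC class II, read 10.16, 9.53 and 8.40 after DMSO and 10.49, 10.86 and 10.69 after DMA. Slfn1, a Schlafen gene of immune cells, read 6.94, 6.75 and 6.50 after DMSO and 7.31, 7.82 and 9.08 after DMA. All 4 of these immune genes kept a difference of at least 0.83 when any single array was left out.

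The other 6 leading genes on the higher side had other roles. Hdac5, a class IIa histone deacetylase that restrains hypertrophic gene programmes, read 9.95, 9.43 and 9.23 after DMSO and 10.28, 10.68 and 11.07 after DMA. Tsc22d1, a transcriptional regulator induced by TGF-beta, read 9.94, 10.15 and 10.50 after DMSO and 10.67, 11.81 and 12.13 after DMA. Cstf1 and Ppil1 act in mRNA 3' end cleavage and in splicing; their differences were 1.34 and 1.35, of which pair 1 showed 0.12 and 0.01. Pxdc1 differed by 1.25 and Fbf1, a gene of the ciliary transition fibre, by 1.21, while a second probe for Fbf1 differed by 0.04. Each of the 10 had a limma adjusted p of 0.963.

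On the lower side 160 named bright genes were eligible, and for 7 of the leading 10 the size rested largely on DMA replicate 3. Crim1, a membrane protein that binds bone morphogenetic proteins, read 9.12, 9.97 and 10.82 after DMSO and 8.94, 8.75 and 4.96 after DMA. The difference was -2.42 with all arrays (SE 1.10) and -1.13 without DMA replicate 3, and a second Crim1 probe differed by 0.35. Ptpn11, the phosphatase SHP-2 of growth factor signalling, read 7.498, 8.69 and 8.32 after DMSO and 7.38, 7.11 and 4.83 after DMA, and its difference went from -1.73 to -0.92 without that array. Across Ptpn11, Crim1, Lims1, Rab11fip2, Stn1, Col6a5 and Mtap the differences without it lay between -1.13 and -0.59, compared with -2.42 to -1.17 with it. With all arrays Rab11fip2, Col6a5 and Mtap differed by -1.60, -1.67 and -1.44, and their second probes by -0.20, 0.05 and -0.49.

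Eppk1, Lrrc32 and Rbfox1 had smaller differences. Eppk1, which encodes the cytolinker epiplakin, read 7.44, 7.63 and 7.498 after DMSO and 6.69, 6.95 and 6.48 after DMA, with differences of -0.75, -0.68 and -1.01 in the 3 pairs. It was the gene of both groups with the tightest DMSO values among the 20, with an SD of 0.10. Lrrc32, a docking protein of latent TGF-beta, differed by -0.89 and by -0.58 without DMA replicate 3. Rbfox1, a splicing factor of heart and brain, differed by -0.79 and by -0.60 without it. Their limma adjusted p was 0.963.

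Without DMA replicate 3 the leading genes were again partly Irg GTPases. Iigp1 read 10.11, 9.52 and 10.23 after DMSO and 11.64 and 11.32 in DMA replicates 1 and 2, a difference of 1.53 (limma unadjusted p = 0.00531, adjusted p = 0.984); DMA replicate 3 read 9.56. Over all 6 arrays this probe differed by 0.89 and a second Iigp1 probe by -2.25, so the probes of this gene disagreed. Irgm2 read 8.46, 8.22 and 8.99 after DMSO and 9.38, 9.92 and 6.25 after DMA; its difference was 1.09 without DMA replicate 3 and -0.04 with it. Cpa4, a carboxypeptidase gene, differed by 0.98 and by 0.91 with all arrays, while its second probe differed by -0.58. On the lower side stood Tecta, Acp5, Otop3, Eppk1 and Col6a5. Tecta differed by -0.83 without that array and by -0.44 with it, and was higher after DMA in pair 3 by 0.29. Acp5, the tartrate-resistant acid phosphatase of macrophages and osteoclasts, differed by -0.72 and by -0.59 with it, and Otop3 by -0.63 and by -0.38 with it. Each had an adjusted p of 0.984 in that fit.

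Genes of energy metabolism were higher after DMA in pair 2 and not in pair 1, as were some other lists. Over all genes 48.6% were higher in pair 1, 49.98% in pair 2 and 57.0% in pair 3. Of the muscle protein breakdown and proteasome list, 89.5% were higher in pair 2 and 31.6% in pair 1. For macrophage markers these shares were 100% and 36.4%, and for sarcomere genes 84.6% and 38.5%. Lymphocyte markers and ribosomal proteins, at 46.7% and 37.5% in pair 2, differed from this. Of 18 genes of fatty acid use with all values, 16 were higher in pair 2, 4 in pair 1 and 12 in pair 3, with medians of 1.14, -0.11 and 0.57. Oxidative phosphorylation and citrate cycle genes had medians of 1.24, -0.01 and -0.10 in pairs 2, 1 and 3, with 16 of 18 higher in pair 2. Glucose use genes had medians of 1.25, -0.10 and 0.10. In each of these 3 lists 0 genes were called and 1 had an unadjusted p under 0.05 with limma.

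The vehicle arrays themselves were unequal for these genes. Over the fatty acid list the mean level was 9.82, 8.12 and 8.75 on DMSO replicates 1 to 3 and 9.62, 9.31 and 9.19 on the DMA arrays. Cpt2, the inner carnitine palmitoyltransferase, read 10.11, 7.08 and 9.45 after DMSO and 9.76, 10.23 and 8.28 after DMA. Atp5b, the beta subunit of ATP synthase, read 11.56, 8.18 and 10.81 after DMSO and 11.37, 11.68 and 11.95 after DMA. For both genes DMSO replicate 2 was the lowest of the 6 arrays. Without DMSO replicate 2 the median difference of the fatty acid list was 0.08 in place of 0.56. It was 0.88 without DMSO replicate 1, and 0.42 to 0.67 without each other array. The glucose list median of 0.32 was 0.21 without DMSO replicate 2, but 0.13 and 0.51 without DMA replicates 2 and 3. Without each remaining array it was 0.27 to 0.39. The oxidative phosphorylation median of 0.16 moved with several arrays: it was 0.05 without DMSO replicate 2, -0.06 and 0.02 without DMA replicates 1 and 2, 0.27 and 0.56 without DMSO replicates 3 and 1, and 0.79 without DMA replicate 3.

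Pdk4, a fasting-responsive kinase that shuts off pyruvate oxidation, followed the replicate number more than the treatment. It read 10.39, 5.49 and 5.69 after DMSO and 9.57, 8.12 and 5.65 after DMA. Angptl4, a fasting-induced inhibitor of lipoprotein lipase, had no value in DMSO replicate 1. It read 7.53 and 7.08 after DMSO and 11.09, 9.49 and 8.15 after DMA. The group means lay 2.27 apart, with an SE of 0.90 (limma adjusted p = 0.963). This value includes DMA replicate 1, the highest array for Angptl4, without its DMSO partner. For Pdk4 that partner was the highest array of all. How far the missing value raised the Angptl4 difference cannot be told. Hk1, a hexokinase, read 8.75, 7.14 and 7.94 after DMSO and 8.67, 9.89 and 10.23 after DMA, a difference of 1.65 (SE 0.62). Sdhc, a membrane subunit of succinate dehydrogenase, read 11.98, 9.69 and 10.63 after DMSO and 11.95, 12.34 and 12.84 after DMA. In Hk1 and Sdhc the pair 1 arrays differed by -0.09 and -0.02.

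**Figure D5:**
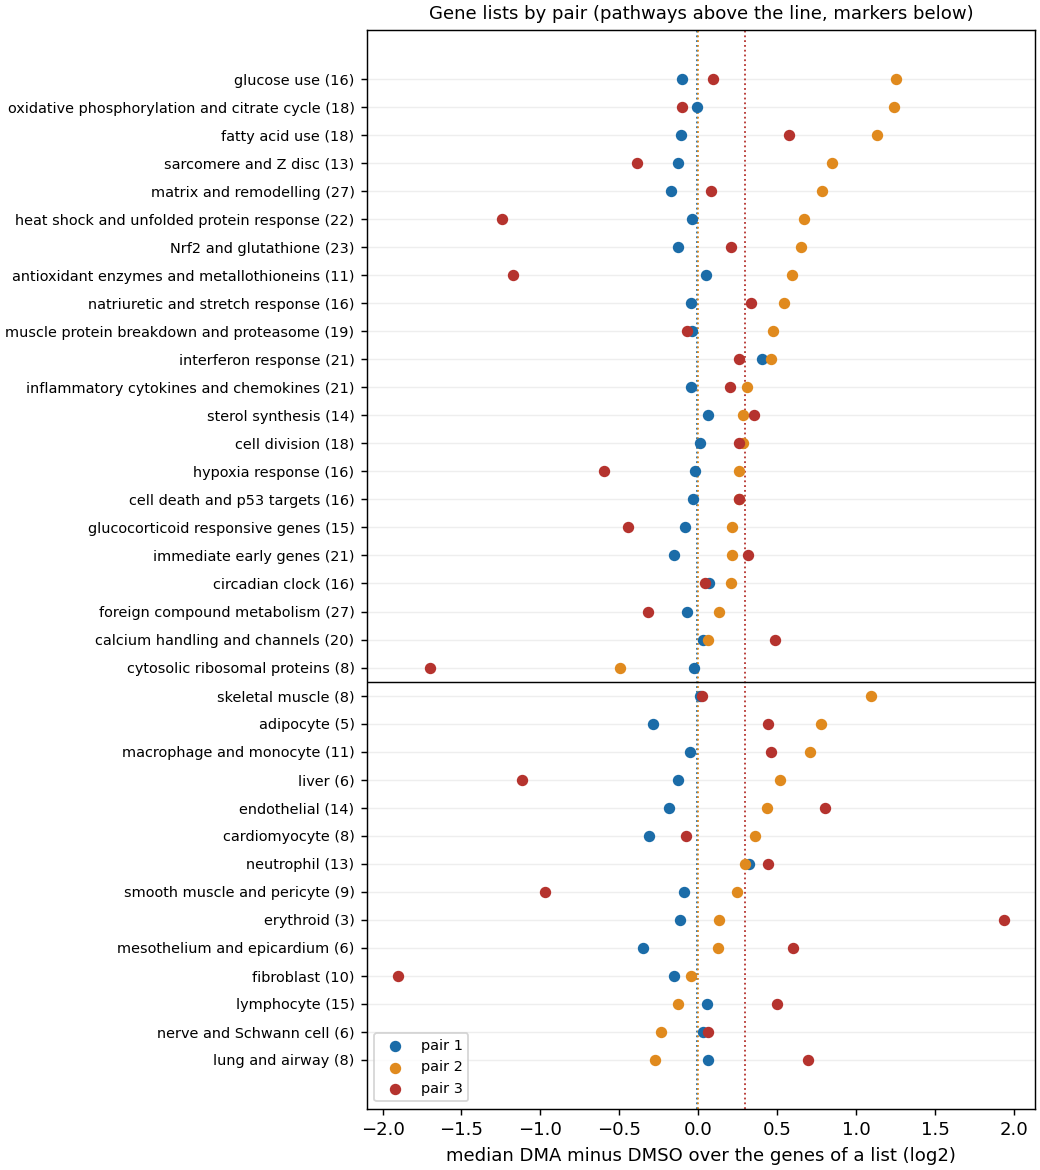
Median DMA minus DMSO (log2) of each gene list in pairs 1, 2 and 3, with the number of genes measured on all 6 arrays in brackets; dotted lines are the medians of all genes. Pathway lists are above the line and marker lists below. In pair 1 the interferon list stands at 0.41, and in pair 2 the 3 metabolic lists stand at 1.14 to 1.25.

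Of the 22 pathway lists, 5 had a positive median in all 3 pairs: interferon response, circadian clock, calcium handling and channels, cell division and sterol synthesis. The calcium list still had a negative median of group differences (-0.27) over its 25 tested genes, which include genes without a value on every array. The cytosolic ribosomal proteins alone had a negative median in all 3, at -0.03, -0.49 and -1.70. Of the 14 marker lists, neutrophil and skeletal muscle markers had 3 positive medians and fibroblast markers 3 negative ones. The medians over all genes were -0.01, 0.00 and 0.29, so a positive median in pair 3 was also what all genes showed. Without DMA replicate 3 the median changed its sign for 13 of the 36 lists.

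Ribosomal protein genes, among the most abundant transcripts of any cell, showed that dependence. Of 13 tested, 11 were lower after DMA, with a median difference of -1.21, which was -0.11 without DMA replicate 3. Rpl8 read 11.68, 12.62 and 12.93 after DMSO and 11.81, 11.88 and 7.07 after DMA. Of the 8 with all values, 3 were lower in all 3 pairs (37.5%, against 9.46% of all genes) and 0 were higher. For 2 of the 8 the groups also did not overlap, where the share of all genes was 2.24%. Rps2, 1 of these 2, read 4.70, 4.43 and 4.85 after DMSO and 3.56, 3.20 and 3.81 after DMA. Its difference was -1.14 (SE 0.40, limma adjusted p = 0.963). That probe lay below the array medians of 6.03 to 6.04 throughout.

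Heat shock and unfolded protein genes had medians of -0.04, 0.67 and -1.24 in the 3 pairs, and the list's median of -0.37 became 0.39 without DMA replicate 3. The inducible HSP70 gene Hspa1a read 8.35, 8.002 and 7.49 after DMSO and 8.15, 7.91 and 4.29 after DMA. Hspb1, the small heat shock protein, read 14.20, 12.78 and 12.68 after DMSO and 13.97, 12.73 and 10.52 after DMA. Outside DMA replicate 3 the pair differences of both genes were at most 0.23 in size.

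Genes that respond to foreign compounds showed no common shift. Of 33 tested genes of foreign compound metabolism, 18 were higher and 15 lower, with a median of 0.26 and 0 called. Of the 27 with all values, 2 were higher in all 3 pairs (7.41%, against 12.4% of all genes). In all 3 pairs 4 were lower (14.8%, against 9.46%). The groups did not overlap for 0 higher and 3 lower genes, where the shares of all genes were 3.3% and 2.24%. Cyp1a1, the target gene of the aryl hydrocarbon receptor, read 5.66, 5.32 and 5.995 after DMSO and 5.41, 6.07 and 6.83 after DMA. Cyp1b1, Ephx1 and Cyp2j6 differed by -0.305, -1.78 and -0.19, and by -0.02, 0.11 and 0.34 without DMA replicate 3. Cyp1b1 was lower in all 3 pairs, by -0.44, -0.10 and -0.37. Ephx2, soluble epoxide hydrolase, had no value in DMSO replicate 1 and read 9.08 and 9.94 after DMSO and 11.50, 11.37 and 11.23 after DMA, a difference of 1.86 (SE 0.50, limma adjusted p = 0.963). Its DMA values were close to each other and all above both DMSO values.

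The Nrf2 and glutathione list split evenly with all 6 arrays, with 15 tested genes higher and 15 lower. Its median of -0.007 became 0.33 without DMA replicate 3. Of the 23 genes with all values, 17 were then higher and 6 lower. In pairs 1, 2 and 3, 6, 17 and 12 of these 23 were higher. Nqo1, a quinone reductase and a standard Nrf2 target, read 7.73, 5.09 and 6.99 after DMSO and 7.48, 7.51 and 9.12 after DMA. Gclc, the catalytic subunit of glutathione synthesis, read 7.16, 6.01 and 6.43 after DMSO and 7.14, 6.94 and 7.15 after DMA. Both repeated the pattern of the metabolic genes, with no gain in pair 1 and DMSO replicate 2 lowest. Hmox1, haem oxygenase, differed by -0.09 and -0.07 in pairs 1 and 2 and by -2.35 in pair 3.

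Natriuretic and stretch genes gave no common direction either, with 12 of 19 tested genes higher, a median of 0.31 and 0 called. Nppb, the B-type natriuretic peptide of strained ventricles, read 12.67, 9.69 and 10.34 after DMSO and 12.49, 11.03 and 5.38 after DMA. Sarcomere genes had medians of -0.13, 0.85 and -0.39 in the 3 pairs. Calcium handling and channel genes had a median difference of -0.27, with 11 tested genes higher and 14 lower, and 0.04 without DMA replicate 3. Of the 20 with all values, 5 were higher and 1 lower in all 3 pairs (12.4% and 9.46% of all genes were); those higher included Gja1, the connexin of ventricular gap junctions, and Kcnj11, the pore of the ATP-sensitive potassium channel. Gja1 read 5.44, 4.38 and 5.46 after DMSO and 6.26, 5.56 and 6.26 after DMA, without overlap, a difference of 0.93 (SE 0.49). Kcnj11 differed by 1.03 (SE 0.52), and both had a limma adjusted p of 0.963.

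Clock genes were higher in all 3 pairs in 6 of 16 cases (37.5%, against 12.4% of all genes): Cry1, Cry2, Npas2, Nr1d1, Per1 and Per3. Over the 6 genes the group differences lay between 0.17 (Cry2) and 0.81 (Per3), and without DMA replicate 3 those of Cry2 and Per1 were -0.003 and 0.005. Nr1d1, the repressor Rev-erb alpha, read 12.32, 11.78 and 11.98 after DMSO and 12.39, 11.91 and 12.94 after DMA, and Cry2 differed by 0.19, 0.24 and 0.09 in the 3 pairs. Of the 17 tested clock genes 11 were higher and 6 lower. Arntl and Clock differed by -0.93 and -1.08, and by 0.27 and 0.28 without DMA replicate 3. The list's median in pair 3 was 0.045, against 0.29 over all genes. None of the 17 had an unadjusted p under 0.05.

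Neutrophil markers were split. Of 13 markers with all values, Bpi, Trem1, Cxcr2, Mpo and Ngp were higher in all 3 pairs (38.5%, against 12.4% of all genes). Mmp8 and Retnlg were lower in all 3 (15.4%, against 9.46%). The groups did not overlap for 3 of the 13 on the higher side and 0 on the lower. Those shares of all genes were 3.3% and 2.24%. Only 3 of the 13 were bright. Bpi, a bactericidal granule protein, read 1.25, 2.00 and -0.44 after DMSO and 4.49, 4.96 and 3.995 after DMA, a difference of 3.54 (SE 0.69, limma unadjusted p = 0.00125, adjusted p = 0.963). Trem1, an amplifying receptor of myeloid cells, read 1.85, 3.47 and 1.42 after DMSO and 4.42, 4.62 and 5.01 after DMA. All values of both probes lay below the array medians, and the DMSO replicate 3 value of Bpi was the lowest value of its array.

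The abundant neutrophil transcripts showed the replicate number instead. S100a9, a calgranulin, read 11.31, 7.78 and 8.17 after DMSO and 11.67, 7.85 and 6.89 after DMA. Retnlg read 10.47, 8.48 and 7.67 after DMSO and 10.41, 7.65 and 4.13 after DMA. For both genes the 2 arrays of pair 1 lay above the other 4. The part of neutrophil content in these pair differences was not tested.

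Among the markers of other tissues, Alb, serum albumin, read 5.53, 6.61 and 4.65 after DMSO and 4.32, 2.89 and 4.30 after DMA, a difference of -1.76 (SE 0.67, limma adjusted p = 0.963). Only its DMSO replicate 2 value lay above the array medians of 6.03 to 6.04. Of 6 liver markers with all values, 1 was higher and 1 lower in all 3 pairs (16.7% each, against 12.4% and 9.46% of all genes). The liver median of -0.20 became 0.13 without DMA replicate 3. Endothelial markers had medians of -0.19, 0.44 and 0.80. Of 18 tested endothelial markers, 10 were higher and 8 lower after DMA. Of the 14 with all values, 1 was higher in all 3 pairs (7.143%, against 12.4% of all genes) and 0 were lower. Kdr, the main VEGF receptor of endothelium, read 11.54, 9.82 and 10.75 after DMSO and 11.36, 11.60 and 12.29 after DMA. Pecam1, another marker of the list, differed by -0.263, and by -0.434, 2.439 and -2.794 in pairs 1, 2 and 3. Fibroblast markers had medians of -0.15, -0.04 and -1.91; Pdgfra held between 11.50 and 12.16 on all 6 arrays. Over all lists, 601 different genes were tested, 0 were called and 13 had an unadjusted p under 0.05 with limma, beside 204 of all 17693 genes tested.

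The DMA effect at 24 h was set against that at 48 h in 1 limma model of all 12 arrays. Each effect was taken within its time because the times may have been scaled apart. No probe passed: of 35401 tested, 0 were called, and 695 (1.96%) had an unadjusted p under 0.05, with a smallest adjusted p of 0.999. Igtp differed by 1.98 at 24 h and 0.23 at 48 h, a difference of 1.74 (SE 0.93, limma adjusted p = 0.999). Hdac5 differed by 1.14 and -0.13, a difference of 1.27 (SE 0.53, adjusted p = 0.999). At 48 h, 509 genes were higher and 257 lower in all pairs without overlap, of 14914, counts from other arrays and another set of genes with full values.

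Where a gene had 2 bright probes, the probes gave nearly unrelated DMA differences. Over 736 such genes, the differences of the probes correlated at 0.024, and at 0.062 without DMA replicate 3, as a description across genes. The sign was the same in 52.0% of them. In pair 1 the correlation was 0.098, and the levels of the 2 probes correlated at 0.109. Whether each probe measures the gene that the platform annotation names was not tested, and this holds for every gene value given here.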

How the data were processed

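Mouse heart RNA was measured on 12 1-colour arrays; the log2 values are those the authors deposited in the series' value table, and background correction and normalization are not given in the sources used here. The times may have been scaled apart, so values were compared within 24 h. The table holds 36227 probes: 21615 name 1 gene, 681 several and 13931 none in the platform annotation, which can be old; 21487 of the named probes were found in RefSeq. Probes with at least 2 values per group (35547) were tested with limma 3.58.1 (lmFit, eBayes) in R 4.3.3, with Benjamini-Hochberg adjustment over all of them; 680 were not tested. The median level per array was 6.03 to 6.04, and 322 to 3997 probes per array had no value, often very bright ones. The number of arrays limits the precision.

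A gene is its probe of highest mean among those naming 1 gene. The named genes are the 10 per direction with the smallest p among bright genes with 3 pairs of 1 sign and no overlap, 5 per direction without DMA replicate 3, 6 per direction farthest on that array, and the first members of each list; other list members, the GTPase family and the pair 1 leaders were chosen after their values were seen. The members and lists were chosen with earlier results of these data known. Same-numbered arrays were treated as pairs because the correlation of their deviations was above 0.1 in every pair; this comes from the data, not from the labels. Alternatives were each array left out, the replicate block, array weights, all 12 arrays, 2 other scalings, filters on missing, low and lowest values, and a trended robust variance. The limma script was tested on simulated data. Python 3.11.15 with pandas 2.3.3 and matplotlib 3.10.9 did the rest.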

Additional observations from a re-analysis of the deposited data

How the results depend on the processing

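No probe was called at 24 h with limma in any fit that was run: with each array left out in turn, with array weights, in all 12 arrays, after either rescaling, under each filter on values and with a trended robust variance. Counts at an unadjusted p under 0.05 went from 70 with the filter on the mean level to 3389 with array weights, which gave DMA replicate 3 a weight of 0.108 and DMA replicate 1 a weight of 5.23. With the replicate block 0 probes were called at 24 h, 562 had an unadjusted p under 0.05 and the smallest adjusted p was 0.924; the block changed no call. The difference between 24 h and 48 h gave 0 calls in 4 fits, with at most 1164 probes at an unadjusted p under 0.05.

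The count of genes with 3 pairs of 1 sign and no overlap was 813. It was 354 when the mean had to reach the median, by construction from fewer genes, 799 after quantile normalization and 897 with the mean of all probes of a gene. Leaving out 1 array, which leaves fewer pairs to meet the condition, gave 1545 to 3740. Irgm2 reversed its direction, from -0.04 to 1.09 without DMA replicate 3 and to 0.17 without DMSO replicate 3; the range over single arrays left out was -0.74 to 1.09, and the cause in the second case was not tested. Probes without a value, among them many of the brightest heart transcripts, and signal near the lowest value of an array limit what could be compared.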
